A study of Mus musculus with 8 samples.

Results

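The epidermal growth factor (EGF) receptor gene, 5 genes for ligands of the ERBB receptor family (Ereg, Tgfa, Hbegf, Areg and Nrg1) and Errfi1, which encodes an inhibitor of the receptor, were followed across 3 mouse mesenchymal cell lines, one of them also after contact with pre-B cells. The genes were chosen by name, and every probe set that the array annotation assigned to one of the 7 symbols was included. This gave 16 of the 45101 probe sets: 7 for Egfr, 3 for Tgfa, 2 each for Hbegf and Errfi1, and 1 each for Ereg and Nrg1. No probe set carried the symbol Areg in the annotation used, so amphiregulin was not analysed here. Of the 16 probe sets, 10 reached a normalized intensity of 100 on at least 2 of the 8 arrays, and the other 6 stayed below 100 on every array.

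ERBB receptors are tyrosine kinases of the cell surface that pair up when a ligand of the EGF family binds and then pass the signal to the RAS and MAP kinase cascade and to PI3 kinase. Most of these ligands are made as membrane-anchored precursors and are released by ADAM proteases, so that a cell can act on itself or on its neighbours. Active receptors induce their own inhibitors, among them ERRFI1, the Sprouty proteins and the MAP kinase phosphatases. In mesenchymal cells the EGF receptor is known to promote proliferation and to restrain differentiation into bone-forming cells.

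The study asked how stromal cells and developing B-lymphocytes communicate, and hybridised 2 arrays, labelled as biological replicates, for each of 4 groups. The first was OP9, a bone marrow stromal line of B6C3F1 background, after co-culture with the pre-B cell line 230-238, and the second was OP9 cultured without these cells. In both groups the OP9 cells carried a retroviral mStrawberry reporter, had been selected for high reporter signal and were purified by flow cytometry before RNA extraction, and according to the study's methods the control cells received conditioned medium. The other groups were MC3T3, labelled an osteoblast-like line, and NIH3T3, an embryonic fibroblast line that does not support B cell development, both given as Balb/c in the labels and both grown in a different medium from OP9. The description of 1 MC3T3 array names sorted cells and that of the other a culture. Each group was a single cell line. Line, strain, medium and the steps applied to OP9 cells cannot be told apart in comparisons of OP9 with MC3T3 or NIH3T3. These steps were the reporter, selection, purification and, for the control, conditioned medium. MC3T3 and NIH3T3 share their strain label and medium.

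The arrays had median intensities of 41.77 to 44.99, with 34.3% to 36.3% of probe sets at 100 or above. The median difference between the 2 arrays of a group, over probe sets at 100 or more, was 0.163 on the log2 scale in NIH3T3 and between 0.0745 and 0.0961 in the other groups. Of 9 mesenchymal markers, 8 or 9 averaged at least 100 in every group, whereas in MC3T3 only 1 of the 5 osteoblast markers measured did so: Dmp1 read 969.7 and 1142, and Sp7, Ibsp, Alpl and Phex stayed below 100. Of 8 osteoblast markers listed, Runx2, Bglap and Spp1 were not measured, as no probe set carried their symbol alone. In co-cultured OP9 the 11 pre-B markers measured summed to 756.3 and 772, against 475.8 and 499.1 in OP9, with 2 of the 11 higher (Vpreb1 at 77.7 and 76.05, against 25.78 and 21.6, and Ptprc at 34.6 and 31.09, against 8.928 and 8.582) and only Cd24a reaching 100. Cd24a read 299.1 and 322.4 in co-cultured OP9 and 181.3 and 187.5 in OP9. In NIH3T3, a group without pre-B cells, the same markers summed to 1045 and 1054, so the sum is not specific to pre-B cells. The 6 fat cell markers summed to 11890 and 11990 in co-cultured OP9, against 36370 and 36490 in OP9, with 5 of the 6 lower. The part of these shifts in the results below was not tested.

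A probe set was called higher or lower where limma gave an adjusted p below 0.05, with Benjamini-Hochberg adjustment over all 45101 probe sets, and the fold change was at least 2. With 2 arrays per group, the p-values rest on differences between arrays that may be partly technical. An array reads RNA from a mixture, so fewer expressing cells and less RNA per cell cannot be told apart.

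Co-cultured OP9 against OP9 gave 1 of 16 member probe sets higher and 0 lower, where 1.23% of all probe sets were higher and 1.43% lower (2.66% together). A further 4, on Egfr and Errfi1, had an adjusted p below 0.05 but under 2-fold, and 6 of the 16 had an unadjusted p below 0.05, as did 24.6% of all probe sets. OP9 against MC3T3 gave 6 higher and 1 lower of 16, beside 5.39% and 4.93% of all probe sets (10.3% together). OP9 against NIH3T3 gave 4 higher and 3 lower, beside 10.4% and 6.91% (17.3% together), and MC3T3 against NIH3T3 gave 0 higher and 4 lower, beside 9.22% and 6.53% (15.7% together), with 11 of the 16 at an unadjusted p below 0.05, as were 51.2% of all probe sets. The median log2 difference of the 16 was 0.16 for co-culture, 0.18 for OP9 against MC3T3, 0.03 for OP9 against NIH3T3 and -0.45 for MC3T3 against NIH3T3, with medians over all probe sets between -0.08 and 0.02. The 16 are not independent, since several report the same gene, and the comparisons share the arrays of OP9, MC3T3 and NIH3T3. Among probe sets at 100 or more, the median of all genes was shifted by 0.15 in OP9 against NIH3T3 and 0.12 in MC3T3 against NIH3T3, and by 0.01 and 0.02 after quantile normalization, which left the member counts at 7 and 4.

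**Figure D1:**
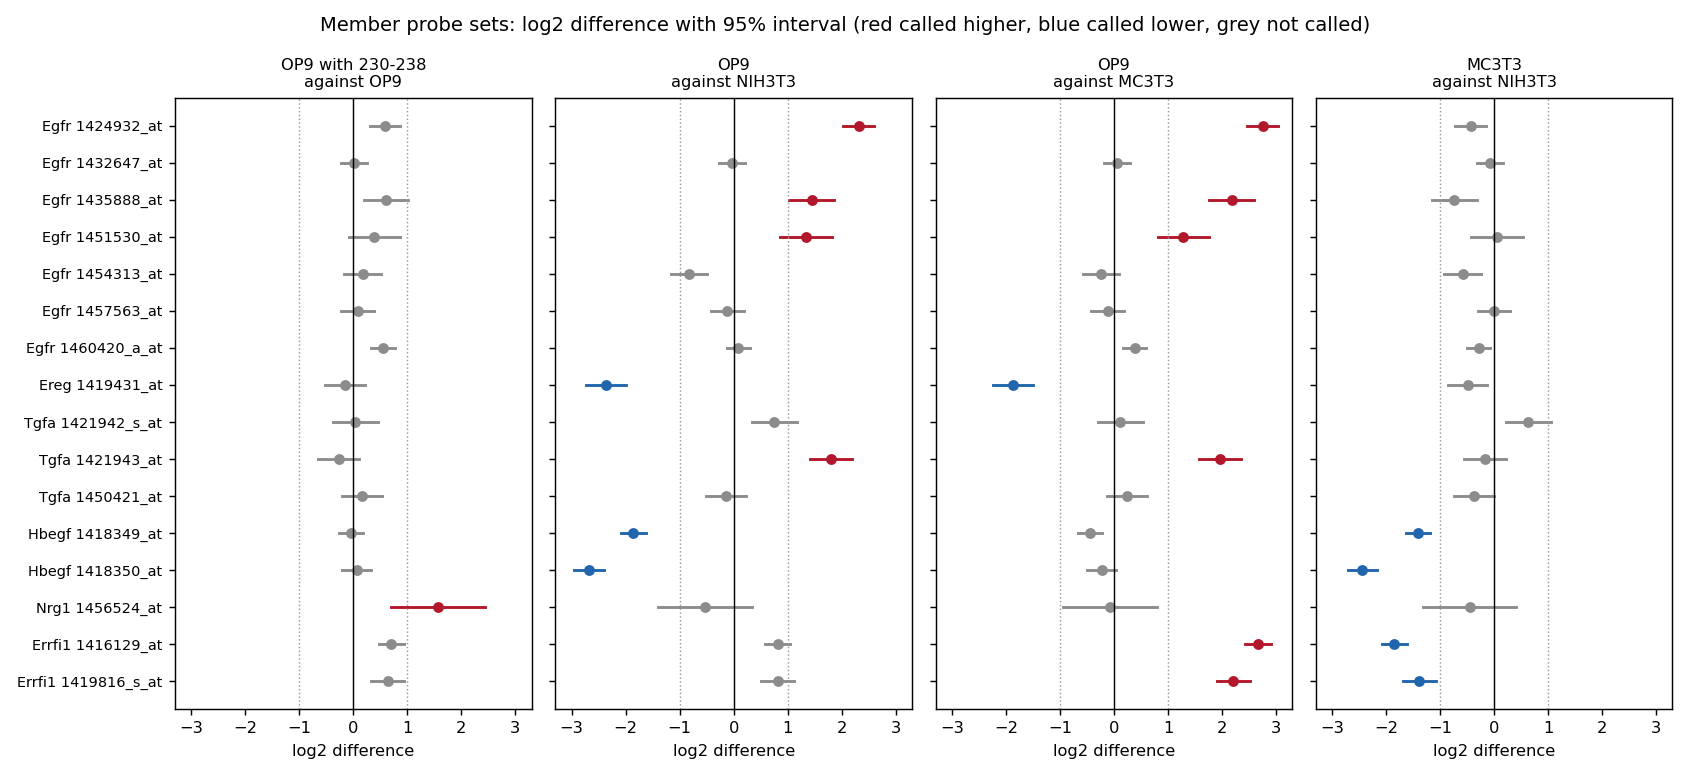
Log2 difference (x axis) of each of the 16 member probe sets in the 4 comparisons, with 95% intervals from limma, dotted lines at 2-fold, and red and blue for probe sets called higher and lower. In co-culture 1 interval, that of Nrg1, belongs to a called probe set, and it is the widest, whereas in OP9 against MC3T3 the called probe sets of Egfr, Tgfa and Errfi1 lie to the right and that of Ereg to the left.

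Egfr, the receptor that binds EGF, transforming growth factor alpha, epiregulin, amphiregulin and HB-EGF, was higher in OP9 than in both other lines on 3 of its 7 probe sets. On 1424932_at, intensities were 430.1 and 400.2 in co-cultured OP9, 277.2 and 274.4 in OP9, 39.25 and 42.75 in MC3T3 and 61.58 and 49.94 in NIH3T3. No array of any group overlapped those of another, with both OP9 groups far above the other lines. The difference was 6.73-fold for OP9 against MC3T3 (adjusted p = 1.54e-06) and 4.97-fold for OP9 against NIH3T3 (log2 difference 2.31 ± 0.12 SE, adjusted p = 2.53e-06). MC3T3, the lowest group, was 1.35-fold below NIH3T3 (adjusted p = 0.0209), short of the 2-fold required.

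Probe set 1435888_at gave 265.1 and 298.5 in co-cultured OP9, 193.2 and 178.4 in OP9, 46.07 and 36.44 in MC3T3 and 58.13 and 80.33 in NIH3T3. The order of the groups was the same, again with no overlap, and OP9 was 4.53-fold above MC3T3 and 2.72-fold above NIH3T3 (adjusted p = 4.54e-05 and 0.000293). On 1451530_at, whose sequence came from the same GenBank record as that of 1424932_at, values were 167.3 and 169.3 in co-cultured OP9, 118.5 and 139.7 in OP9, 58.43 and 47.58 in MC3T3 and 40.95 and 63.28 in NIH3T3. Here MC3T3 and NIH3T3 overlapped and did not differ beyond their spread (1.04-fold, adjusted p = 0.863), while OP9 was 2.44-fold above MC3T3 and 2.53-fold above NIH3T3 (adjusted p = 0.00187 and 0.001).

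The fourth Egfr probe set with signal, 1460420_a_at, did not share the gap between lines. It gave 400.6 and 386.9 in co-cultured OP9, 274.7 and 264.1 in OP9, 214.3 and 199.7 in MC3T3 and 259.9 and 246.6 in NIH3T3. All 4 groups thus read at 199.7 or above, and OP9 was only 1.30-fold above MC3T3 (adjusted p = 0.0163) and 1.06-fold above NIH3T3 (log2 difference 0.09, 95% interval -0.13 to 0.31, adjusted p = 0.466), the last changing sign to -0.10 after quantile normalization. Egfr was therefore reported differently by probe sets of the same gene, and which transcripts each of them captures was not tested. The remaining probe sets 1432647_at, 1454313_at and 1457563_at read between 9.321 and 94.68 on all arrays and were not called in any comparison. Of these, 1454313_at read 49.48 and 43.52 in OP9, against 94.68 and 71.05 in NIH3T3, its highest group (1.77-fold lower in OP9, adjusted p = 0.00212), although it comes from the same GenBank record as 1432647_at, on which the groups overlapped.

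**Figure D2:**
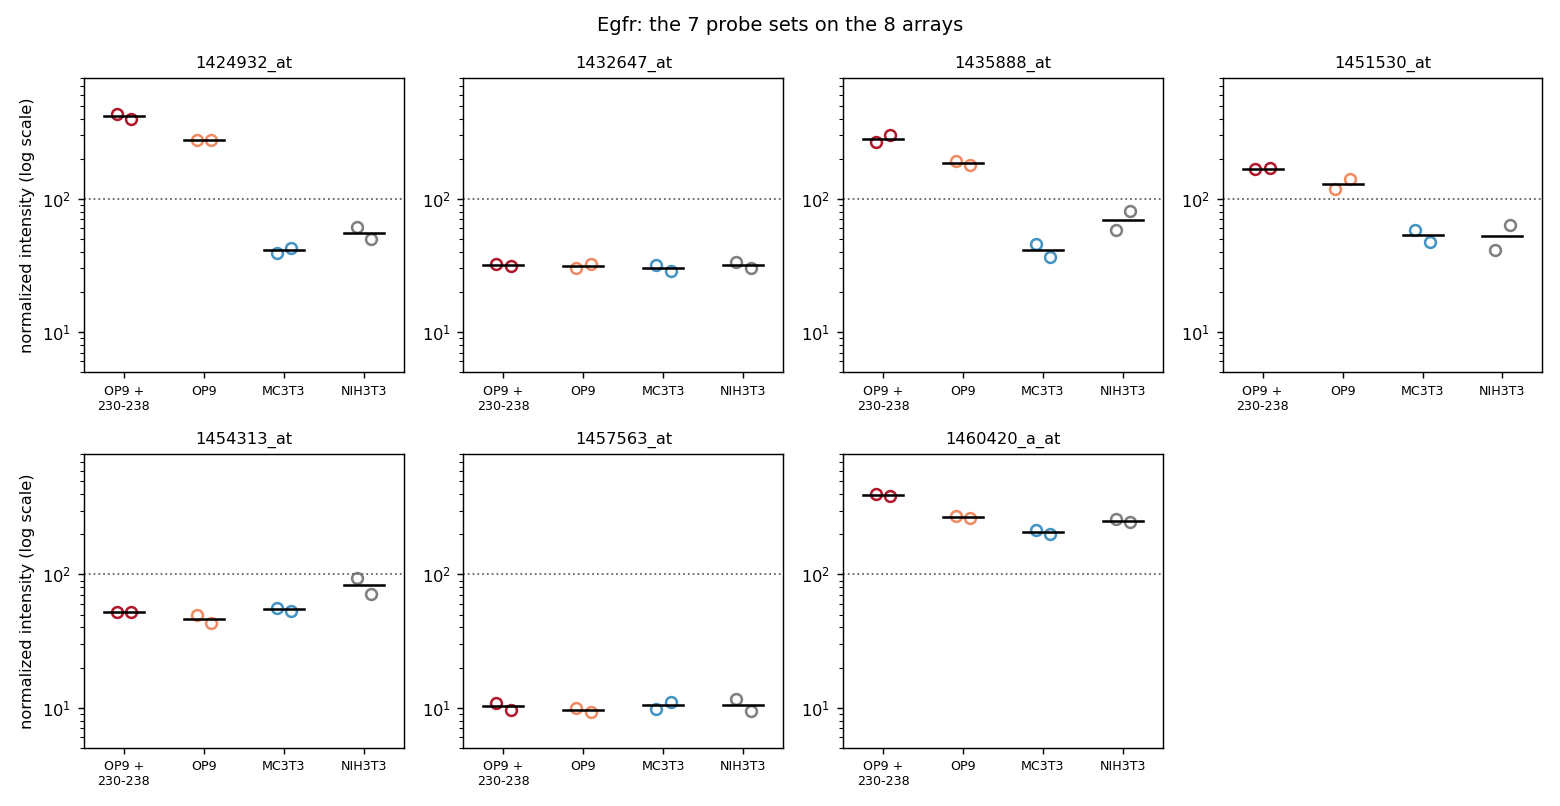
Normalized intensity (log axis) of the 7 Egfr probe sets, with 1 circle per array, a bar at the mean of the 2 arrays of each group and a dotted line at 100. On 1424932_at, 1435888_at and 1451530_at both OP9 groups lie above 100 and the other lines below it, whereas on 1460420_a_at all 8 arrays lie between 199.7 and 400.6.

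In contact with 230-238 cells, the 4 Egfr probe sets with signal all read higher, though none reached 2-fold. Co-cultured OP9 was 1.50-fold above OP9 on 1424932_at (log2 difference 0.59 ± 0.12 SE, adjusted p = 0.0179), 1.46-fold on 1460420_a_at (0.55 ± 0.09 SE, adjusted p = 0.00776), 1.52-fold on 1435888_at (adjusted p = 0.0693) and 1.31-fold on 1451530_at (adjusted p = 0.307). The arrays of the 2 groups did not overlap on any of the 4. With 1 array left out at a time, the adjusted p of 1424932_at ranged from 0.00302 to 0.133, exceeding 0.05 without any 1 of the 4 OP9 arrays, while the log2 difference stayed between 0.54 and 0.64. That of 1460420_a_at reached 0.0773 in these fits. Beside these values, the 8 macrophage markers summed to 461.6 and 474.8 in co-cultured OP9, against 445 and 486.3 in OP9, and the pre-B and fat cell markers moved as given above.

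Errfi1, which binds the kinase domain of the EGF receptor and shuts it off, separated all 4 groups on both of its probe sets. Probe set 1416129_at read 2834 and 2825 in co-cultured OP9, 1716 and 1769 in OP9, 266.9 and 281.5 in MC3T3 and 925.2 and 1057 in NIH3T3. The groups formed 4 steps with no overlap, co-cultured OP9 at the top and MC3T3 at the bottom. OP9 was 6.36-fold above MC3T3 (log2 difference 2.67 ± 0.10 SE, adjusted p = 6.65e-07) and 1.76-fold above NIH3T3 (adjusted p = 0.000301, under 2-fold), and MC3T3 was 3.61-fold below NIH3T3 (adjusted p = 3.58e-06).

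The other Errfi1 probe set, 1419816_s_at, gave the same order, with 1692 and 1670 in co-cultured OP9, 1022 and 1140 in OP9, 260.5 and 209.5 in MC3T3 and 574.5 and 653.1 in NIH3T3. Its differences were 4.62-fold for OP9 above MC3T3 (adjusted p = 8.39e-06), 1.76-fold for OP9 above NIH3T3 (adjusted p = 0.00136) and 2.62-fold for MC3T3 below NIH3T3 (adjusted p = 7.63e-05). Neither probe set reached 2-fold in co-culture. Co-cultured OP9 was 1.62-fold above OP9 on 1416129_at (log2 difference 0.70, 95% interval 0.47 to 0.93, adjusted p = 0.00368) and 1.56-fold above it on 1419816_s_at (0.64, interval 0.33 to 0.95, adjusted p = 0.0179). With 1 array left out at a time, the adjusted p reached 0.0435 on 1416129_at and 0.139 on 1419816_s_at, where the log2 difference stayed between 0.56 and 0.72.

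The promoter windows of Egfr and Errfi1 are shown because these genes had probe sets above 100 that were called higher in OP9 than in MC3T3. Each window of 300 bases lies mostly upstream of an annotated transcript start and was taken from RefSeq on GRCm38.p6, and 4 of the 7 genes had such an entry (Egfr, Tgfa, Areg and Errfi1). Capitals mark matches on either strand to the GC box GGGCGG, the TATA box TATAAA or the cAMP response element TGACGTCA.
Egfr, chr11:16751953-16752252, plus strand: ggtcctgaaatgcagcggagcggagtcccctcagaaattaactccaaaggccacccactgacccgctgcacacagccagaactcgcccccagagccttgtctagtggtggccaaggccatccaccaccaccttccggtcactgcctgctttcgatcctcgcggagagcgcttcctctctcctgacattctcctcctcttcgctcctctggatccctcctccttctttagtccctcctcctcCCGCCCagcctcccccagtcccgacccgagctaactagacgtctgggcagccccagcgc
Errfi1, chr4:150854820-150855119, plus strand: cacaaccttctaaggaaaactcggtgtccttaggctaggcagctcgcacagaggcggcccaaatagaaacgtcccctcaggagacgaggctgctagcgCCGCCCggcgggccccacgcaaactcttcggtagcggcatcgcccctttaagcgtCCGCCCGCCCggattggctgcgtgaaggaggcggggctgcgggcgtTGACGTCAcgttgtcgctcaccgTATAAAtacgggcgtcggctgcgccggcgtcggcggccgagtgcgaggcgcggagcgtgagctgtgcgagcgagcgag
The GC box occurred 1 time in the Egfr window and 3 times in that of Errfi1, where 2 of the matches overlap, and 35.7% of the 32851 mouse promoter windows held at least 1. The Errfi1 window also held 1 TATA box, found in 13.6% of windows, and 1 cAMP response element, found in 1.79%. Neither window held the AP-1 motif TGANTCA or the E-box CACGTG, which occurred in 7.81% and 7.15% of windows. A second annotated Errfi1 window, chr4:150853546-150853845, held none of the 5 motifs and had a GC content of 42%, against 66.7% in the one printed and 62.3% in the Egfr window. The arrays do not tell which of the Errfi1 starts was used.

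Tgfa encodes transforming growth factor alpha, a ligand that binds only the EGF receptor within the ERBB family. Its 3 probe sets read below 100 on every array, and 1 of them separated OP9 from the other lines. On 1421943_at, values were 53.09 and 61.81 in co-cultured OP9, 73.97 and 64.91 in OP9, 16.12 and 19.51 in MC3T3 and 22.91 and 17.33 in NIH3T3. The OP9 groups lay above both other lines, which overlapped each other. OP9 was 3.91-fold above MC3T3 (adjusted p = 5.83e-05) and 3.48-fold above NIH3T3 (adjusted p = 5.95e-05), and MC3T3 and NIH3T3 did not differ beyond their spread (adjusted p = 0.453). The values of these 2 lines lie below the median of every array, and the deposited values carry no detection call, so signal and background cannot be told apart there and the folds are those of the measured intensities only.

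The other Tgfa probe sets come from the same GenBank record but showed no such gap. On 1421942_s_at, OP9 at 52.35 and 49.58 stood beside MC3T3 at 43.85 and 50.14 and NIH3T3 at 24.85 and 36.91, with a 1.68-fold difference from NIH3T3 (adjusted p = 0.0102) that reached a call, at a log2 difference of 1.03, only when NIH3T3 array 2 was left out. On 1450421_at, all 8 arrays lay between 42.18 and 67.7 and no comparison was called. In co-cultured OP9 none of the 3 probe sets passed the test against OP9, and 1421943_at read 1.21-fold lower (log2 difference -0.28, 95% interval -0.66 to 0.11, adjusted p = 0.382).

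Ereg, the gene of epiregulin, a ligand of the EGF receptor and of ERBB4, ran the other way. Its single probe set 1419431_at read 56.57 and 59.99 in co-cultured OP9, 68.55 and 61.67 in OP9, 235.6 and 237.9 in MC3T3 and 280.5 and 396.2 in NIH3T3. Both OP9 groups lay below 100 and the other lines well above it, without overlap. OP9 was 3.64-fold below MC3T3 (log2 difference -1.86 ± 0.16 SE, adjusted p = 5.9e-05) and 5.13-fold below NIH3T3 (-2.36 ± 0.16 SE, adjusted p = 9.77e-06). MC3T3 was 1.41-fold below NIH3T3 (adjusted p = 0.0369), and co-cultured OP9 was 1.12-fold below OP9 (log2 difference -0.16, 95% interval -0.53 to 0.21, adjusted p = 0.631), neither of which was called.

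Hbegf, the gene of the heparin-binding ligand of the EGF receptor and ERBB4, was high in NIH3T3 alone. Probe set 1418350_at read 61.51 and 61.64 in co-cultured OP9, 55.8 and 62 in OP9, 70.2 and 67.78 in MC3T3 and 343.6 and 412.4 in NIH3T3. The NIH3T3 arrays stood apart while the other 6 arrays lay between 55.8 and 70.2. OP9 was 6.40-fold below NIH3T3 (adjusted p = 9.03e-07) and MC3T3 was 5.46-fold below NIH3T3 (adjusted p = 1.71e-06), whereas OP9 and MC3T3 did not differ beyond their spread (1.17-fold lower in OP9, adjusted p = 0.202). On 1418349_at, from the same GenBank record, values were 33.84 and 31.37 in co-cultured OP9, 33.1 and 33.98 in OP9, 43.6 and 47.62 in MC3T3 and 118.8 and 123.9 in NIH3T3. The 2 OP9 groups overlapped, MC3T3 lay above them and NIH3T3 above all. OP9 was 3.62-fold and MC3T3 2.66-fold below NIH3T3 (adjusted p = 2.46e-06 and 1.28e-05), and OP9 was 1.36-fold below MC3T3 (adjusted p = 0.00972), short of a call.

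Nrg1, the gene of neuregulin 1, which binds ERBB3 and ERBB4 rather than the EGF receptor, was the 1 member called in co-culture. Its probe set 1456524_at read 180 and 116.8 in co-cultured OP9, 50.19 and 48.07 in OP9, 51.43 and 51.9 in MC3T3 and 45.29 and 111.1 in NIH3T3. Both co-cultured arrays lay above every other array, but they were 1.54-fold apart, and the NIH3T3 arrays were 2.45-fold apart, the widest gap of any member within a group. Co-cultured OP9 was 2.95-fold above OP9 (log2 difference 1.56 ± 0.37 SE, adjusted p = 0.0324) and 2.81-fold above MC3T3 (adjusted p = 0.017). Against NIH3T3 it was 2.04-fold above (adjusted p = 0.0575) and was not called.

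The Nrg1 call depended on single arrays. Without co-culture array 1 or 2 the adjusted p against OP9 was 0.211 or 0.0712, without OP9 array 1 or 2 it was 0.149 or 0.171, and without either MC3T3 array it was 0.0682. Without either NIH3T3 array it was 0.000702. The log2 difference itself remained between 1.25 and 1.87 in these fits. Against NIH3T3, OP9 was lower by a log2 difference of -0.53 (adjusted p = 0.281), which became -1.18 (adjusted p = 0.00253) without NIH3T3 array 1 and 0.12 without array 2. For MC3T3 against NIH3T3 the value was -0.46 (adjusted p = 0.362), with -1.11 (adjusted p = 0.00382) and 0.19 when the same arrays were left out, so no direction can be given for NIH3T3.

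**Figure D3:**
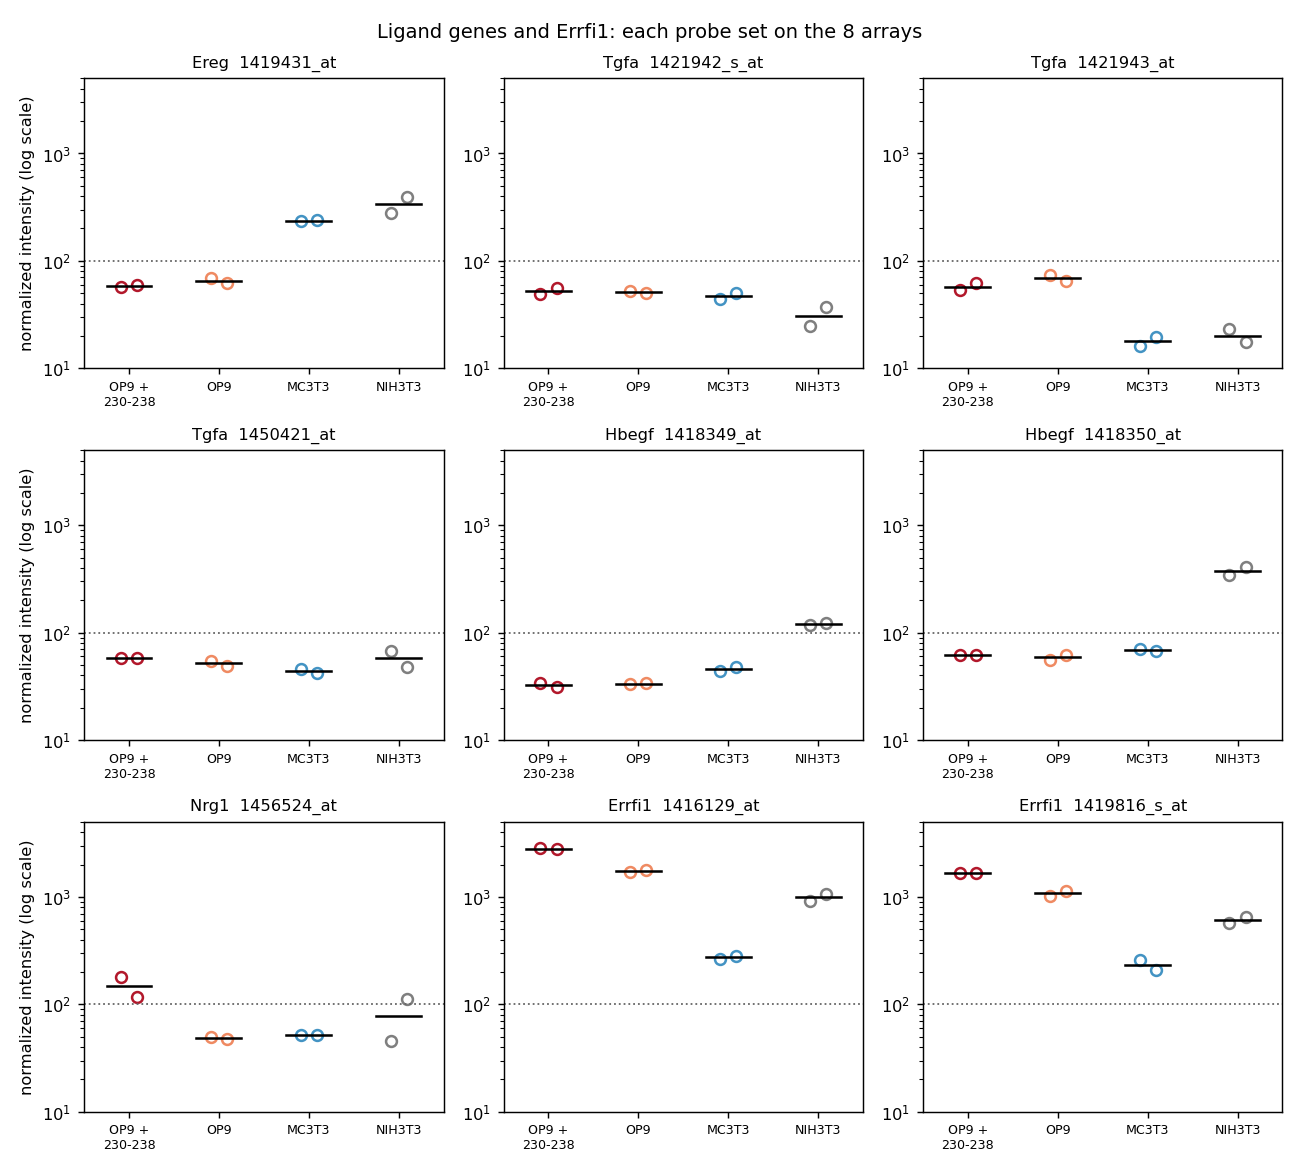
Normalized intensity (log axis) of the 9 probe sets of the ligand genes and Errfi1, with 1 circle per array, a bar at the mean of the 2 arrays of each group and a dotted line at 100. Ereg is low in both OP9 groups, Hbegf is high only in NIH3T3, Nrg1 is highest in co-cultured OP9 with arrays at 180 and 116.8, and Errfi1 is highest in co-cultured OP9 and lowest in MC3T3.

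Among the other receptors and ligands of the family, only Erbb2 reached 100 on at least 2 arrays. Erbb2, the co-receptor that binds no ligand of its own, averaged 153 ± 0.616 in co-cultured OP9, 125 ± 2.24 in OP9, 208.9 ± 6.31 in MC3T3 and 170.7 ± 14.3 in NIH3T3 (SD, n = 2 each), with no difference of 2-fold. Erbb3, a neuregulin receptor, stayed below 100, at 27.13 in OP9 against 64.8 in NIH3T3 (2.36-fold lower, adjusted p = 0.000796), and Erbb4, the other neuregulin receptor, averaged between 10.33 and 12.67. Thus where Nrg1 was called, in co-cultured OP9, its binding receptors Erbb3 and Erbb4 averaged 30.27 and 11.94, against 27.13 and 10.33 in OP9, and neither was called.

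None of the 6 other ligand genes (Egf, Btc, Epgn, Nrg2, Nrg3 and Nrg4) reached 100 on 2 arrays. Btc, the gene of betacellulin, was lower in OP9, at 22.51 and 25.48, than in MC3T3, at 64.42 and 66.79 (2.74-fold, adjusted p = 0.000685), and than in NIH3T3, at 65.05 and 100.2 (3.37-fold, adjusted p = 0.00015), with no overlap. Nrg4 was higher in OP9, at 49.45 and 51.33, than in MC3T3, at 24.14 and 21.1 (2.23-fold, adjusted p = 0.000138), and NIH3T3, at 23.23 and 20.04 (2.33-fold, adjusted p = 6.21e-05). It read 29.44 and 28.09 in co-cultured OP9, 1.75-fold below OP9 (adjusted p = 0.00341) and short of a call. Nrg2 was 2.24-fold below NIH3T3 in OP9 (adjusted p = 0.00178), and Egf, Epgn and Nrg3 were not called in any of the 4 comparisons. In the called differences of Btc, Nrg4, Nrg2 and, above, Erbb3, the lower values lie below the median of every array. Signal and background cannot be told apart there, and the folds are those of the measured intensities only.

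A set of 71 measured genes of the wider pathway left out Egfr, Ereg, Tgfa, Hbegf, Nrg1 and Errfi1. It held the other receptors and ligands above, ligand shedding, receptor proximal signalling, the RAS and MAP kinase cascade, feedback inhibitors and MAP kinase targets. Co-culture gave 3 higher and 8 lower of the 71, or 15.5%, where 3.56% of all 18194 named genes were called. Of the 71 genes, 62 reached 100 on at least 2 arrays, against 10101 of the 18194. The lists were chosen with earlier results of these data known, and the part of either in this count was not tested. Of 8 shedding genes, 1 was called (12.5%, beside 3.56% of all named genes). This was Adam12, a protease that can cleave the HB-EGF precursor. It fell to 28.33 and 21.68 in co-cultured OP9, against 305.7 and 223 in OP9 (log2 difference -3.40, adjusted p = 7.5e-05 by limma). Its other probe set was also called lower (log2 difference -2.53). The co-cultured values lie below the median of every array, so signal and background cannot be told apart there. The other 7 shedding genes were not called. Among these, Adam17, the main sheddase of transforming growth factor alpha, read 618 and 624.3 in co-cultured OP9 and 586.9 and 550 in OP9.

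Feedback inhibitors other than Errfi1 gave 0 higher and 4 lower of 16. Over all named genes 1.74% were higher and 1.81% lower. At an unadjusted p below 0.05 the counts were 2 and 7 of 16 (12.5% and 43.8%), beside 13.1% and 16.5% of all named genes. The receptor pathway inhibitor Spry1 fell to 410.4 and 448.4 in co-cultured OP9, against 1474 and 1404 in OP9 (log2 difference -1.75, adjusted p = 0.00023). The MAP kinase phosphatases Dusp1, Dusp5 and Dusp6 fell by 1.33, 1.14 and 1.12 on the log2 scale (adjusted p = 0.000276, 0.003 and 0.000341). Errfi1 thus stood on the other side of 0 from these 4 genes, with its 1.62-fold higher value in co-cultured OP9.

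Of 15 targets of the MAP kinase cascade, 2 were higher and 3 lower in co-culture (33.3%, beside 3.56% of all named genes). At an unadjusted limma p below 0.05 the counts were 4 and 7 of 15 (26.7% and 46.7%), beside 13.1% and 16.5% of all named genes. The immediate early gene Fos fell to 208.6 and 232.8 in co-cultured OP9, against 6401 and 6382 in OP9 (log2 difference -4.86, adjusted p = 3.08e-06), Egr1 fell by 2.66 and Ier2 by 2.32. Phlda1 rose to 1337 and 1527, against 574 and 565.7 in OP9 (log2 difference 1.33, adjusted p = 0.000152), and Myc rose to 538.1 and 599.9, against 231.1 and 227.8. Of 15 receptor proximal genes, 1 was called (6.67%, beside 3.56% of all named genes). This was Stat3, a transcription factor that the receptor can activate. Stat3 read 2334 and 2259 in co-cultured OP9 and 1143 and 1146 in OP9 (2.01-fold, adjusted p = 0.00138 by limma). Its 3 other probe sets gave log2 differences of 0.92, 0.49 and 0.25 and were not called. Of 8 RAS and MAP kinase genes, 0 were called by limma and 1 had an unadjusted p below 0.05 (12.5%, beside 29.7% of all named genes).

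**Figure D4:**
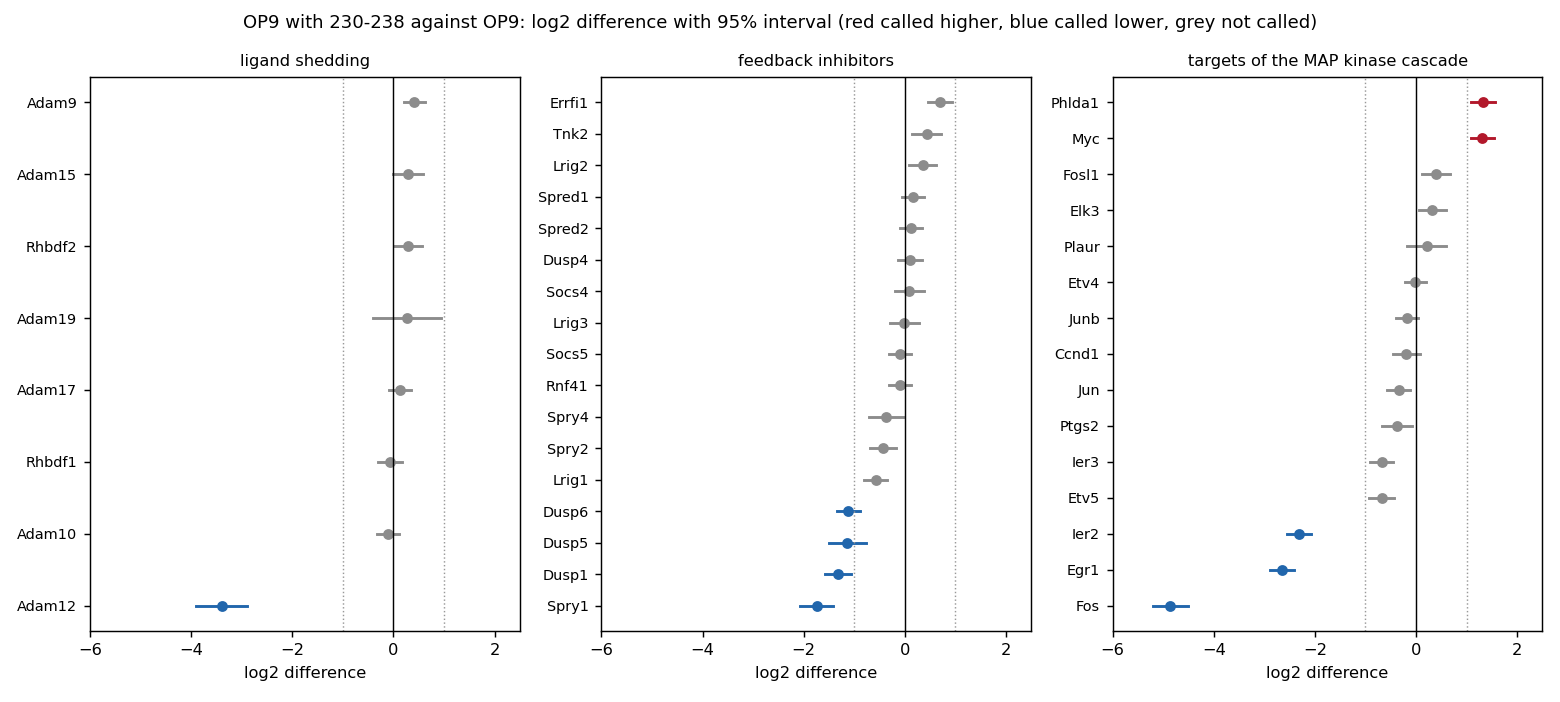
Log2 difference (x axis) of co-cultured OP9 against OP9 for 8 ligand shedding genes, 16 feedback inhibitors plus Errfi1, and 15 targets of the MAP kinase cascade, with 95% intervals from limma, dotted lines at 2-fold, and red and blue for genes called higher and lower. Adam12, Spry1, 3 Dusp genes, Fos, Egr1 and Ier2 lie to the left, and Phlda1 and Myc to the right.

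Between the lines, OP9 against NIH3T3 gave 14 genes higher and 13 lower of the 71 (38%, beside 19.6% of all genes), and OP9 against MC3T3 gave 13 higher and 11 lower (33.8%, beside 12.8%). Spry1, at 1474 and 1404 in OP9, read 87.19 and 114.6 in MC3T3 and 77.24 and 70.21 in NIH3T3, and was called higher in OP9 in both comparisons (log2 differences 3.85 and 4.29). Adam12 was higher in OP9 than in MC3T3 and NIH3T3 by log2 differences of 2.86 and 3.78, and Adam19 by 1.79 and 3.07. On their other probe sets the differences were 2.33 and 2.26 for Adam12 and 1.68 and 2.64 for Adam19, all called. The Adam12 values of MC3T3 and NIH3T3 lie below the median of every array, where signal and background cannot be told apart. Lrig3, which encodes a leucine-rich membrane protein, was higher in OP9 than in NIH3T3 by 3.52 on the log2 scale, and by 1.77 and 1.14 on its 2 other probe sets, all called. The phosphatase Dusp4 fell to 59.25 and 63.9 in OP9, against 1103 and 1028 in NIH3T3.

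The 15 targets of the MAP kinase cascade were split, with 4 higher and 5 lower in OP9 both against NIH3T3 and against MC3T3. These calls were 60% of the 15 in either comparison, beside 19.6% of all genes against NIH3T3 and 12.8% against MC3T3. Fos read 6401 and 6382 in OP9, 224.8 and 304.4 in MC3T3 and 138.1 and 142.6 in NIH3T3, and was higher in OP9 by log2 differences of 4.61 against MC3T3 and 5.51 against NIH3T3. Ptgs2, the gene of the inducible cyclooxygenase, stood on the other side, with 39.66 and 44.44 in OP9, 563.6 and 585.8 in MC3T3 and 2729 and 3397 in NIH3T3, 3 levels without overlap (log2 difference -3.77 for OP9 against MC3T3, -6.18 for OP9 against NIH3T3). The OP9 values lie near the medians of their arrays (42.63 and 42.64). On the other Ptgs2 probe set the log2 differences were -3.49 against MC3T3 and -4.90 against NIH3T3.

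MC3T3 against NIH3T3 gave 10 higher and 11 lower of the 71 genes (29.6%, beside 17.2% of all genes). Lrig1, which promotes loss of the receptor from the cell surface, fell to 63.83 and 62.51 in MC3T3, against 538.6 and 536 in NIH3T3 (log2 difference -3.09, adjusted p = 2.67e-07). Of the 2 other Lrig1 probe sets, 1 was called lower (log2 difference -2.42) and 1 was not (-0.39). Cblb, a ubiquitin ligase of the receptor, was also lower in MC3T3, at 87.68 and 84.19, against 457.2 and 422.4 in NIH3T3, as was Errfi1. Of the 2 other Cblb probe sets, 1 was called lower (log2 difference -2.12) and 1 was not (-0.71). Etv5 and Pik3r1 were higher in MC3T3 than in NIH3T3 by log2 differences of 3.77 and 3.36. The other probe sets of Etv5 gave 2.34 and 2.88, and those of Pik3r1 gave 3.78, 3.61 and 1.02, all called higher. Etv5 read 13.35 and 14.42 in NIH3T3, below the median of every array. Signal and background cannot be told apart there.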

How the data were processed

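Total RNA of 8 cultures was amplified and hybridised to Affymetrix mouse arrays (3' expression, 45101 probe sets). The deposited values were normalized intensities on a linear scale. The authors named RMA Express, affylmGUI and dChip, and the sources used here do not give which of them wrote these values. Symbols came from the platform annotation: 34958 probe sets had 1 symbol, 932 several and 9211 none. Intensities were turned into log2 values without a pseudocount or filter and fitted with limma 3.58.1 in R 4.3.3 (lmFit and eBayes), with 4 group means over the 8 arrays and 4 residual degrees of freedom. P-values were adjusted by Benjamini-Hochberg over all probe sets of each comparison. Called differences passed 0.05 after adjustment and reached 2-fold. The fit was tested on simulated data with independent noise, which does not cover errors shared by an array. Each listed gene was read on 1 probe set, that of highest mean over the arrays. Named from the lists were the other ligands and receptors and up to 4 called genes per list and comparison with the largest difference, Myc, Adam17 and the cell type markers being named in addition. Members and lists were chosen with earlier results of these data known. Alternatives were a filter (100 on 2 arrays), quantile or median scaling, a pseudocount of 16, the compared arrays alone, a trended robust prior, a block for replicate number, and leaving out each array. Array number limits the precision.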

Additional observations from a re-analysis of the deposited data

How the results depend on the processing

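Across 936 values of member probe sets under the alternatives, 898 kept direction and call, 4 gained a call, 6 lost it and 28 changed sign, none of the last having been called. In co-culture the count of called members was 1 and ranged from 0 to 1 with 1 array left out. For OP9 against NIH3T3 the count was 7, with 6 after the filter and 7 to 9 with 1 array left out, where Egfr 1454313_at (-1.03) and Tgfa 1421942_s_at (1.03) were gained without NIH3T3 array 2. It was 7 for OP9 against MC3T3 (6 after the filter) and 4 for MC3T3 against NIH3T3 (5 without NIH3T3 array 1). The replicate block gave 1, 7, 7 and 4 calls and changed none, and samples sharing a number deviated together only weakly (correlations 0.028 to 0.18). Log2 differences that changed sign under quantile normalization or median scaling were those of Egfr 1432647_at (MC3T3 against NIH3T3, 0.014 and 0.004, OP9 against NIH3T3, 0.067 and 0.038, co-cultured OP9 against OP9, -0.024 and -0.020), Egfr 1457563_at (MC3T3 against NIH3T3, 0.018 and 0.085) and, under quantile normalization, Egfr 1460420_a_at (OP9 against NIH3T3, -0.103). With 1 array left out, sign changes fell within these ranges. For co-cultured OP9 against OP9 they were Egfr 1432647_at -0.042 to 0.053, Egfr 1457563_at -0.011 to 0.173, Hbegf 1418349_at -0.096 to 0.013, Hbegf 1418350_at -0.010 to 0.142 and Tgfa 1421942_s_at -0.042 to 0.118. For OP9 against NIH3T3 they were Egfr 1432647_at -0.095 to 0.048, Egfr 1457563_at -0.254 to 0.021, Nrg1 1456524_at -1.18 to 0.12 and Tgfa 1450421_at -0.379 to 0.111. For OP9 against MC3T3 it was Egfr 1432647_at -0.007 to 0.126. For MC3T3 against NIH3T3 they were Egfr 1451530_at -0.263 to 0.365, Egfr 1457563_at -0.140 to 0.135, Nrg1 1456524_at -1.11 to 0.19 and Tgfa 1421943_at -0.369 to 0.033. The cause was not tested. The 6 member probe sets below 100 on every array lie where signal and background were not separated by the deposited values.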

Other observations

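For each member gene with a probe set reaching 100 on 2 arrays and a 2-fold range of group means, the genes with the nearest profile were found by the smallest Euclidean distance of centred log2 values over the 8 arrays. Between 17026 and 17029 probe sets were candidates, and the points share only 4 groups, so the values are a description. Nearest to Egfr 1424932_at were Dlx4 (distance 0.274), Ripk3 (0.337) and Cdh13 (0.39). Dlx4, a homeobox gene, averaged 357.7 in co-cultured OP9, 226.3 in OP9, 39.52 in MC3T3 and 48.65 in NIH3T3. Errfi1 1416129_at was followed by Glis3 (0.405), Steap3 (0.422) and Nupr1 (0.62), and Ereg by Mturn (0.414), Snhg4 (0.462) and Wars (0.487). Hbegf 1418350_at had Saa3 (0.221), E130308A19Rik (0.27) and Klf10 (0.284) beside it, Saa3 being an acute phase gene that averaged 51.83 in MC3T3 and 296.8 in NIH3T3. The nearest profiles to Nrg1 lay farther away and were Oas1a (0.642), an interferon-induced gene at 271.3 in co-cultured OP9 and 93.86 in OP9, Il6st (0.868) and Dtx3l (0.956).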
